A study of Mus musculus with 20 samples.

Results

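The immediate early genes described here are Fos, Fosb, Jun, Junb, Atf3, Egr1, Klf4, Ier2, Ier3 and Dusp1, 10 of the 33495 genes in the deposited table, taken by their symbols from its gene symbol column. Whole-genome expression was measured by RNA-seq in 20 libraries from embryonic mouse hearts (C57BL/6), to find out how expression changes when the histone H3K4 methyltransferase gene Kmt2d is deleted in different cardiac populations. Mutants carried the Cre driver, Kmt2d fl/fl and the mTmG reporter, and controls carried the same driver and reporter with Kmt2d fl/+, so that controls also had Cre and 1 floxed allele. Mesp1Cre, active in early mesodermal precursors, gave 4 mutants and 4 controls, for which the labels state whole heart at E9.0 and the protocol text E11.5. Mef2cAHF::Cre, active in precursors of the anterior heart field, gave 3 libraries labelled mutant and 3 labelled control from right ventricle and outflow tract at E11.5. Tnnt2::Cre, active in cardiomyocytes, gave 3 mutants and 3 controls from whole heart at E11.5. All libraries were made from lysed tissue without sorting, which holds cells without Cre, and in such bulk RNA fewer cells of a type cannot be told apart from less RNA per cell. The labels do not say whether a library is 1 embryo or a pool, so the p-values measure the spread between these libraries.

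Immediate early genes are transcribed within minutes of a stimulus, from factors already present in the cell. Growth factors, stretch, ischaemia and stress act through the MAP kinases, which phosphorylate the partners of serum response factor and the CREB family at their promoters. The mRNAs are short-lived, and their proteins (AP-1 subunits, zinc finger factors, phosphatases) drive or end the next step of the response. Because cutting and handling tissue can itself induce them, each gene is given in each library.

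The libraries held 21727258 to 45341870 counts each, and the read numbers behind the 10 genes ran from 6 for Junb to 1792 for Jun. Kmt2d, listed in the table under its older symbol Mll2, had 137 ± 7.57 CPM (counts scaled to the library total, with TMM) in the mutants of Mesp1Cre against 158 ± 5.31 in its controls (SD, n = 4 each), and 112 ± 4.65 in Tnnt2::Cre mutants and 142.5 ± 20.7 in controls (n = 3 each). In Mef2cAHF::Cre it went against the labels, with 190 ± 3.45 CPM in the libraries labelled mutant and 153 ± 5.87 in those labelled control (n = 3 each; log2 fold change 0.32, edgeR FDR 0.0359). The column names of the deposited table call each library of this line by the genotype opposite to its title. The titles are followed here and the values by the column names are given beside them, with every sign reversed. All 8 cardiomyocyte markers were present in every group, summing to 13720 to 29300 CPM in a library.

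The genes lie on mm9 chromosomes 1 (Atf3), 4 (Jun, Klf4), 7 (Fosb), 8 (Junb, Ier2), 12 (Fos), 17 (Ier3, Dusp1) and 18 (Egr1), and all are annotated as protein coding. Ier3, a regulator of survival and of ERK signalling, spans 35958629 to 35959855 on the plus strand of chromosome 17, and Fos, an AP-1 subunit, spans 86814840 to 86818223 on the plus strand of chromosome 12. For Junb and Ier2 the table's gene length is 1035 and 666 bases, of which 99.7% and 99.5% is coding sequence, so that the counted model holds little beyond the coding part. The annotated exons of Jun share 232 bases with the other-strand transcript BC042782 and those of Egr1 share 8 bases with Gm17507. The strand setting of the counting is not stated, and Egr1 is therefore uncertain to that extent, while the Jun length in the table, 2957 of 3189 exonic bases, is shorter by the shared stretch.

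RefSeq promoters (GRCm38.p6) were given for 8 of the 10 genes, all but Egr1 and Ier2, whose motifs are therefore not described. The upstream 250 bases of 3 of them are shown, 5′ to 3′ on the gene's strand. Ier3 and Fos are shown because the largest estimates between genotypes were theirs, and Dusp1 because it alone of the 8 held an exact cAMP response element in this window. Capitals mark ACGTG or GCGTG on either strand, the core bound by hypoxia-inducible factors, and in Dusp1 also TGACGTCA, the cAMP response element. The windows are chr17:35821463-35821712 (plus strand), chr12:85473640-85473889 (plus strand) and chr17:26508473-26508722 (minus strand).
Ier3: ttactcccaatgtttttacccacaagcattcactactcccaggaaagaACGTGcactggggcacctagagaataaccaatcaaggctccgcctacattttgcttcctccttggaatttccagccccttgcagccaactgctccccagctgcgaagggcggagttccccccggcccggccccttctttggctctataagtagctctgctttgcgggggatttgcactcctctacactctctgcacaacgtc
Fos: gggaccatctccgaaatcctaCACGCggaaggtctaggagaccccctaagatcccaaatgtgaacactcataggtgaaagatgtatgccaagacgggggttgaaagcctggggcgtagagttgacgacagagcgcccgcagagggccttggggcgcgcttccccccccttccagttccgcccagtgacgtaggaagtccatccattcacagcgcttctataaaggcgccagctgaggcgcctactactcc
Dusp1: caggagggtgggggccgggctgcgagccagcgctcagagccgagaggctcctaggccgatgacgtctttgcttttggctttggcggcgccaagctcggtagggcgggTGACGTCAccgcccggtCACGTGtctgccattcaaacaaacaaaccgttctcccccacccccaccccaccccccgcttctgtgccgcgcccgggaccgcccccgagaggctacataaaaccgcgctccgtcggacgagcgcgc

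Matches to ACGTG or GCGTG were found upstream of 6 of the 8 genes, a 5-letter motif that 38.6% of all 32851 promoters in the RefSeq table hold in the same window. TGACGTCA was found in 1 of the 8 (1.55% of all promoters), TGANTCA, the AP-1 site, in 0 of the 8 (6.75%), and the CArG box bound by serum response factor in 0 of the 8 (1.47%). The EGR site GCGTGGGCG was found in 0 (0.536%), TATAAA in 1 (12.4%, Fos) and GGGCGG, the GC box, in 7 (32.7%). GCGTGGGCG contains GCGTG and partly overlaps the GC box. A match is a stretch of letters and not a measured site, and these windows do not reach sites farther upstream.

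Expression per transcript length differed widely among the genes. By FPKM (counts scaled to gene length and library total), the median over the 20 libraries was highest for Jun, the partner of FOS in AP-1 (10.7, range 8.05 to 18.9). Dusp1, a phosphatase that inactivates MAP kinases (8.51, 3.24 to 11.8), and Egr1, a zinc finger factor (8.18, 5.20 to 15), followed. Ier3 (5.97) had the widest range, 1.43 to 28.4 FPKM, and in some libraries it exceeded every other member. Atf3, a stress-induced repressor of the ATF/CREB family (3.41), Ier2, a nuclear regulator (2.90), and Klf4, a zinc finger factor of endothelium and stem cells (2.33), lay lower. The AP-1 subunits Fos (1.58, 0.572 to 4.69), Junb (0.519, 0.206 to 1.33) and Fosb (0.170, 0.0507 to 0.503) were the lowest. The ranges of neighbours in this order overlapped throughout.

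In Mesp1Cre hearts, Ier3 was the only member past the threshold, 8.15-fold higher in mutants. The AP-1 subunits, Atf3, Egr1, Klf4, Ier2 and Dusp1 had no change that passed it. The 4 controls had 2.93, 2.10, 1.65 and 3.13 CPM of Ier3 and the 4 mutants 25.9, 17.1, 26.3 and 10.99 CPM. The lowest mutant was well above the highest control, although the mutants themselves spread by 2.39-fold. The means were 20.1 ± 7.39 and 2.45 ± 0.695 CPM (n = 4 each), which corresponds to 3.03 on the log2 scale (SE 0.30, edgeR FDR 6.96e-05, the p of the quasi-likelihood test adjusted over all genes tested). This was 1 of 10 members past an FDR of 0.05, higher in mutants, where 6.17% of all 15883 genes tested were called higher and 5.29% lower. Likewise 1 of 10 members had groups that did not overlap (17.7% of all genes), and 1 of 10 an unadjusted p below 0.05 (26.9% of all genes). Without each library in turn, the log2 fold change of Ier3 was 2.88 to 3.24, with an FDR of 0.000604 or less.

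None of the 4 AP-1 subunits passed the threshold in Mesp1Cre. Fos had 5.45, 2.94, 4.52 and 4.86 CPM in controls and 4.56, 5.56, 8.02 and 5.70 in mutants, overlapping groups with a log2 fold change of 0.42 (SE 0.27, edgeR FDR 0.341). Junb, at 0.470 ± 0.252 CPM in controls and 1.01 ± 0.407 in mutants, had a log2 fold change of 1.10 (SE 0.57, edgeR FDR 0.238), but rested on 7 to 30 reads a library. Fosb rested on 7 to 41 reads, and its 4 mutants ran from 0.301 to 1.80 CPM, on both sides of the controls. Jun was the only AP-1 subunit with a negative estimate, from 31.7 ± 4.30 CPM in controls to 26.1 ± 3.24 in mutants (log2 fold change -0.28, SE 0.13, edgeR FDR 0.187).

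Among the other members in Mesp1Cre, 1 library each decided the shape of the Atf3 values. Atf3 stood at 4.37 to 4.76 CPM in 3 controls and 7.82 in control 4, and at 4.86 to 5.04 in 3 mutants and 10.2 in mutant 3, so that without mutant 3 its log2 fold change turned from 0.20 to -0.12. Egr1 had nearly the same mean in both groups, 22.4 ± 6.03 CPM in controls and 22.2 ± 5.38 in mutants. Its libraries fell into a higher and a lower pair in either genotype, 25.2 and 29.6 against 17.3 and 17.5 CPM in controls and 27.1 and 26.7 against 17.8 and 17.4 in mutants. Klf4, Ier2 and Dusp1 had log2 fold changes of -0.35, -0.25 and -0.29, with edgeR FDRs of 0.450 to 0.681.

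Other measures moved with genotype in the same 8 hearts. Over all genes tested in this line, 6.17% were called higher and 5.29% lower, and 26.9% had an unadjusted p below 0.05. All 12 genes of a hypoxia response list were higher in Mesp1Cre mutants (edgeR FDR 0.00346 or less), their summed level running from 5607 to 6564 CPM in mutants and from 3158 to 3837 in controls. Of 8 erythroid markers 4 were lower (Hbb-y, Hba-a1, Hba-x and Hbb-bh1), with sums of 1957 to 7665 CPM in mutants and 5515 to 18130 in controls, and no marker of the 8 was at 0. Of 6 endothelial markers Kdr and Pecam1 were higher, with sums of 489 to 589 CPM in mutants and 389 to 478 in controls. The 8 macrophage markers summed to 7.75 to 15.1 CPM in mutants and 12.04 to 22.6 in controls. Of the 4 tested, Lyz2 was lower and the other 3 had estimates above 0, 1 of them at an unadjusted p below 0.05. C1qa was at 0 in both groups, Emr1 in controls and Fcgr1 in mutants. All 4 mutants and 2 of the 4 controls carried Y-linked transcripts (4 genes summing to 10 CPM or more), and the male controls had 2.93 and 3.13 CPM of Ier3. The part of these lists and of sex in the Ier3 result was not tested.

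**Figure D1:**
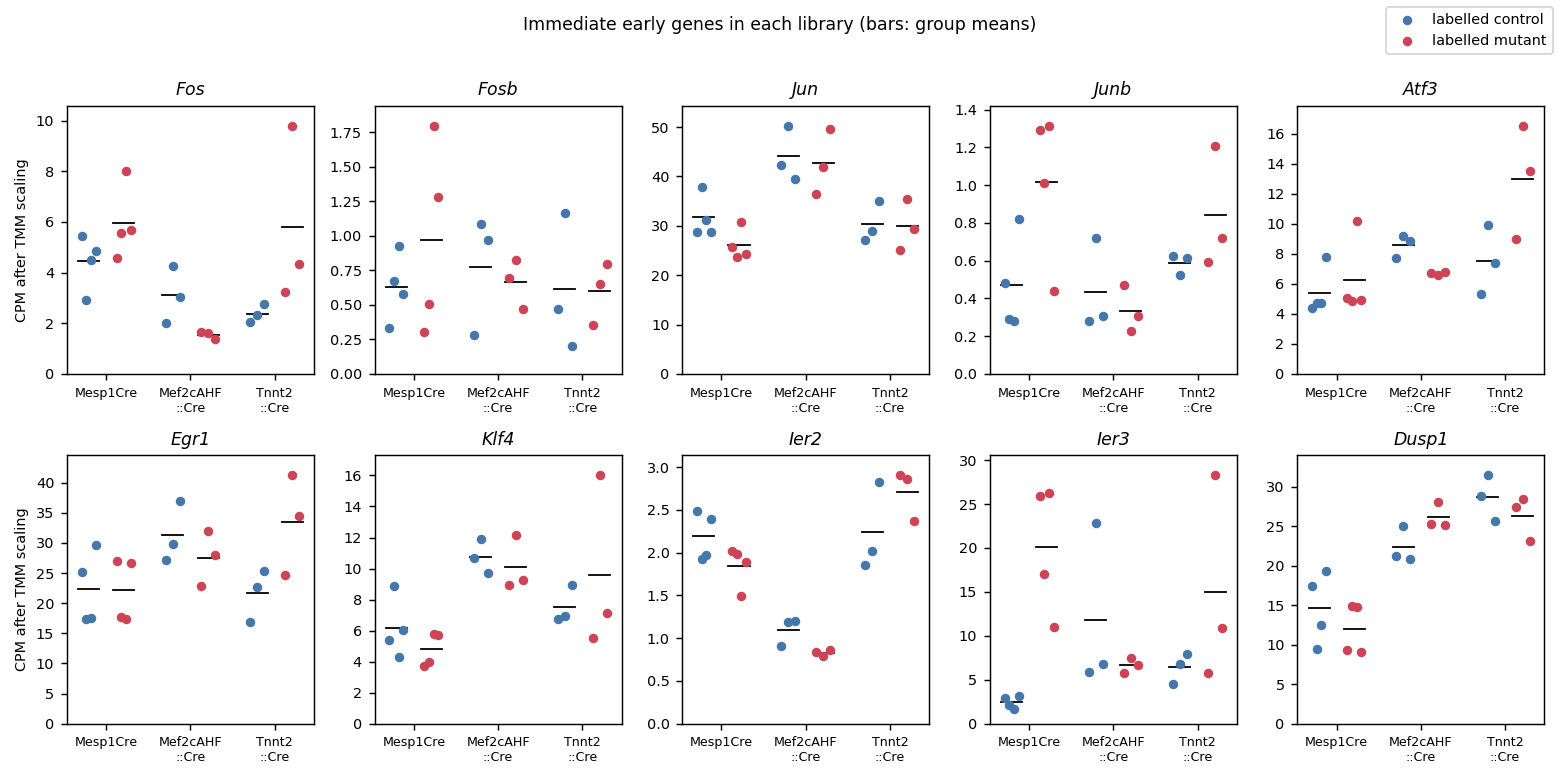
CPM after TMM scaling (y axis, linear from 0) of each immediate early gene in each library, by Cre line and labelled genotype, with bars for group means. Ier3 in Mesp1Cre is separated (1.65 to 3.13 CPM in controls, 10.99 to 26.3 in mutants), and single high libraries stand out, such as 28.3 CPM of Ier3 in Tnnt2::Cre mutant 2 and 22.8 in Mef2cAHF::Cre control 2.

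In Mef2cAHF::Cre, Fos and Atf3 had lower and Dusp1 higher values under the mutant label at an unadjusted p below 0.05, and by the column names the reverse, but no member passed the edgeR threshold. Of the 9 members tested 0 had an FDR below 0.05, where 2.85% of all 16920 genes passed, and 3 had an unadjusted p below 0.05 (17.9% of all genes). DESeq2 passed 1 member, Fos (FDR 0.0445), where 6.35% of all genes passed. With every gene of at least 1 count in the edgeR fit Fos also passed (FDR 0.0193, 4.43% of all genes). Junb, with 6 to 20 reads a library, was below the filter on low counts. The groups did not overlap for 4 of the 9 (Fos, Atf3, Ier2 and Dusp1), where 24% of all genes did not overlap. The other lists were read under the same labels. All 12 hypoxia response genes had estimates below 0 by the titles, 9 of them at an unadjusted p below 0.05 and 0 past the edgeR threshold, with sums of 2233 to 2317 CPM in the libraries labelled mutant and 2371 to 3652 in those labelled control. All 8 erythroid markers had estimates above 0, with Hba-a1 past the threshold and sums of 25260 to 47860 CPM against 7358 to 32620. Of 8 macrophage markers 1 had an estimate above 0. An unadjusted p below 0.05 was found for 4 of the 8 (17.9% of all genes), 1 of them higher under the mutant label. Aif1 was called lower, at 0.259 against 0.859 CPM. The macrophage sums were 38.8 to 47.5 CPM against 37.0 to 45.8, and no marker of either cell type was at 0. By the column names all these signs are reversed, and their part in the values of the members was not tested.

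Fos, the member with the largest estimate here, had 1.64, 1.62 and 1.385 CPM in the libraries labelled mutant and 2.02, 4.255 and 3.06 in those labelled control. The first 3 were tight and all below the lowest of the second, which spread by 2.10-fold. The log2 fold change was -1.01 by the titles and 1.01 by the column names (SE 0.29, edgeR FDR 0.104). Without control 1 the value was -1.24 (FDR 0.0409, in a fit where 2.83% of all genes passed), and without control 2 it was -0.71 (FDR 0.196). Atf3 had 6.70, 6.62 and 6.81 CPM against 7.75, 9.19 and 8.86, a log2 fold change of -0.36 (0.36 by the column names, SE 0.12, edgeR FDR 0.162). Dusp1 went the other way, with 25.3, 28.1 and 25.1 CPM in the libraries labelled mutant and 21.2, 25.1 and 20.9 in those labelled control (0.23, or -0.23 by the column names, SE 0.10, edgeR FDR 0.274). The lowest library labelled mutant (25.12 CPM) and the highest labelled control (25.06 CPM) of Dusp1 almost met.

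Ier3 in this line was set by a single library. The libraries labelled mutant had 5.79, 7.49 and 6.67 CPM and those labelled control 5.90, 22.8 and 6.81. The estimate of -0.83 (0.83 by the column names, SE 0.45, edgeR FDR 0.384) became 0.07 without control 2, and Fosb and Jun, at -0.23 and -0.05, also turned to 0.09 and 0.06 without it. Control 2 was also the only library of this line with Y-linked transcripts, and it had the highest summed hypoxia response genes (3652 CPM against 2233 to 2736 in the other 5) and the lowest summed erythroid markers (7358 CPM against 21170 to 47860). Their part in its Ier3 level was not tested. Egr1, Klf4 and Ier2 had estimates of -0.18, -0.09 and -0.40 by the titles, with edgeR FDRs of 0.507 to 0.809.

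In Tnnt2::Cre hearts, Fos, Atf3, Egr1 and Ier3 were higher in mutants at an unadjusted p below 0.05, but no member passed the edgeR threshold, and the mutant libraries were far apart. Of 10 members 0 had an FDR below 0.05, where 0.293% of all 17045 genes passed (0.0763% as higher, 0.217% as lower), and 4 had an unadjusted p below 0.05 (11.9% of all genes). DESeq2 passed 1 member, Fos (FDR 0.0169), where 2.06% of all genes passed. The groups did not overlap for 1 of 10 (Fos), where 17.1% of all genes did not overlap.

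Fos had 2.06, 2.33 and 2.77 CPM in controls and 3.24, 9.80 and 4.36 in mutants. Mutant 2 was the highest and mutant 1 close to the controls, and the mean was 5.80 ± 3.51 CPM against 2.38 ± 0.358 (SD, n = 3 each). The log2 fold change was 1.28 (SE 0.39, edgeR FDR 0.264). Ier3 followed the same order, with 4.55, 6.81 and 7.99 CPM in controls and 5.81, 28.3 and 10.8 in mutants (1.22, SE 0.50, edgeR FDR 0.387), mutant 1 lying within the controls. Atf3 had 5.31, 9.94 and 7.40 CPM in controls and 8.97, 16.5 and 13.5 in mutants (0.79, SE 0.27, edgeR FDR 0.327). Egr1 had 16.9, 22.7 and 25.3 CPM in controls and 24.6, 41.2 and 34.4 in mutants (0.63, SE 0.21, edgeR FDR 0.302). In all 4 genes the mutants ranked in the order 2, 3, 1.

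These differences rested on which mutant was included. Without mutant 1, the 4 genes passed an FDR of 0.05, with log2 fold changes of 1.57 for Fos (edgeR FDR 0.0215), 1.00 for Atf3 (0.0348), 0.81 for Egr1 (0.0241) and 1.60 for Ier3 (0.0279). In that fit 896 of 17487 genes passed (5.12%), against 50 of 17045 with all 6 libraries. Without mutant 2, the estimates of Fos and Ier3 fell to 0.67 and 0.37. With all 6 libraries, 0 of 8 erythroid markers passed (0.293% of all genes), and all 8 estimates were below 0. Mutant 1 had erythroid markers summing to 123400 CPM, within the 96680 to 151300 of the controls, against 18170 in mutant 2 and 41340 in mutant 3. It also had the lowest hypoxia response sum of the mutants, 2367 CPM against 3675 and 2942. The controls had 1773 to 2434. The part of either list in these differences was not tested.

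The remaining members in Tnnt2::Cre were close between genotypes or carried by mutant 2. Klf4 had 6.77, 6.95 and 8.92 CPM in controls and 5.52, 16.0 and 7.15 in mutants (0.34, SE 0.35, edgeR FDR 0.753). Junb (0.51), Ier2 (0.28), Jun (-0.02), Fosb (-0.03) and Dusp1 (-0.12) had edgeR FDRs of 0.629 to 0.992. Dusp1 was among the more even members, with 28.9, 31.5 and 25.7 CPM in controls and 27.5, 28.4 and 23.1 in mutants.

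**Figure D2:**
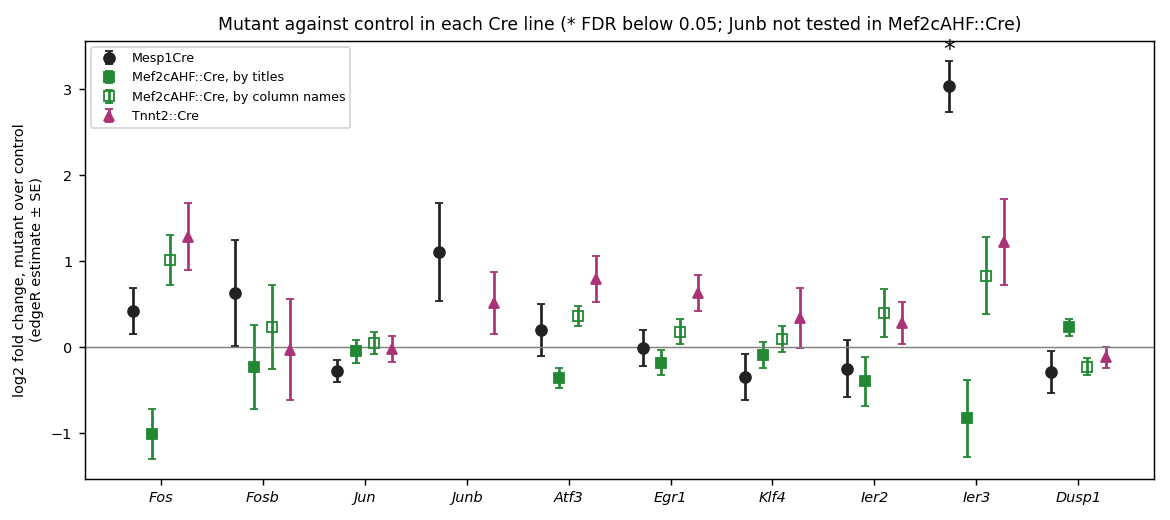
Log2 fold change of mutant over control (y axis, edgeR estimate with its SE) for each immediate early gene in each Cre line, with both readings of the Mef2cAHF::Cre genotypes as filled and open squares. Ier3 in Mesp1Cre (3.03) is the point past an FDR of 0.05, and the open squares mirror the filled ones, as at -1.01 and 1.01 for Fos.

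Whether the effect differed between lines was tested as an interaction in 1 edgeR fit of all 20 libraries, in which the line cannot be told apart from the labelled stage (E9.0 for Mesp1Cre alone) or tissue (right ventricle and outflow tract for Mef2cAHF::Cre alone). For Mesp1Cre against Tnnt2::Cre 0 of 10 members passed an FDR of 0.05 (3.04% of all 18391 genes passed), and 1, Ier3, had an unadjusted p below 0.05 (log2 difference 1.80, SE 0.68, edgeR FDR 0.149). By the titles, the effect on Ier3 was larger in Mesp1Cre than in Mef2cAHF::Cre by 3.84 (SE 0.69, edgeR FDR 0.00133), 1 of 10 members where 11.3% of all genes passed. By the titles, too, the effect on Fos was larger in Tnnt2::Cre than in Mef2cAHF::Cre by 2.28 (SE 0.51, edgeR FDR 0.0158). This was 1 of 10 members, where 3.19% of all genes passed. The interaction fit was not repeated without single libraries. By the column names 0 of 10 members passed in either contrast (1.63% and 0% of all genes passed), with 1 and 0 at an unadjusted p below 0.05. The difference in Ier3 then was 2.18 (edgeR FDR 0.112) and that in Fos 0.27 (edgeR FDR 1).

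The spread between libraries of 1 group was described by the SD of log2 CPM, pooled over the 6 groups. Its median was 0.40 over the 10 members and 0.23 over the 15351 genes tested in all lines. Fosb (0.82) and Ier3 (0.70) had the largest values and Jun and Ier2 (0.20 each) the smallest. The SD that read counting alone would give was 0.36 for Fosb and 0.22 for Ier2, but 0.12 for Ier3 and 0.05 for Egr1, whose SD was 0.33. Against genes of a like level (within 0.5 log2 CPM), 97.5% had a smaller SD than Ier3, 95.9% than Egr1 and 92.1% than Dusp1, while 0.395% had a smaller SD than Ier2 and 30.5% than Junb. The share was 86.9% for Klf4, 81.7% for Atf3, 77.8% for Fosb, 75.8% for Jun and 69.1% for Fos. High spread was therefore not shared by all members.

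**Figure D3:**
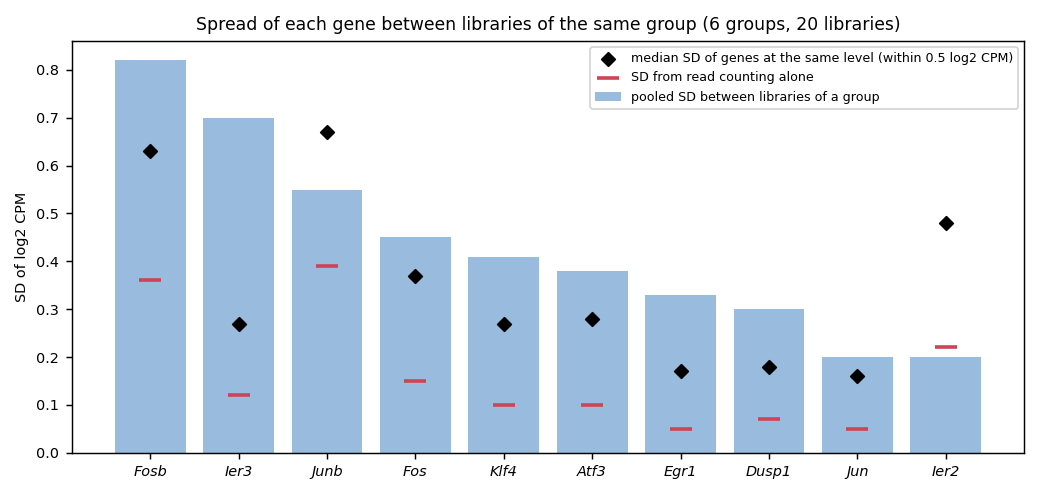
SD of log2 CPM between libraries of a group, pooled over 6 groups (bars, y axis from 0), beside the median of genes of the same level (diamonds) and the SD from read counting (red dashes). Ier3 stands at 0.70 against 0.27 for genes of its level, whereas Ier2 (0.20) lies at its counting error (0.22).

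Several members were high or low together in the same libraries. The deviation of log2 CPM from the group mean was averaged over the 9 members tested in all lines. It was highest in Tnnt2::Cre mutant 2 (0.49, 9 of 9 members above the group mean), Mef2cAHF::Cre control 2 (0.34, 8 of 9) and Mesp1Cre mutant 3 (0.34, 7 of 9). It was lowest in Tnnt2::Cre mutant 1 (-0.44, 2 of 9) and Mef2cAHF::Cre control 1 (-0.34, 0 of 9). By the titles, 1 of the 3 high libraries was a control, and by the column names of the table all 3 would be mutants. The low libraries just named would both be mutants by the column names too. Deviations from a group's own mean cannot show a difference between genotypes. Pairs of members varied in how far they went together over the 20 libraries: Pearson's r of the deviations was 0.77 for Junb and Ier3 (Spearman's rho 0.75), 0.76 for Fos and Ier3 (0.66), 0.68 for Jun and Klf4 (0.62) and -0.45 for Fosb and Ier2 (-0.39). Without the 2 libraries farthest from the median, the r of Fos and Ier3 was 0.59. These values describe libraries that share groups and scaling, and carry no test.

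The same mean deviation was set beside other gene lists in the 20 libraries. It went with that of 31 other immediate early genes (r = 0.85, rho = 0.88, and 0.72 without the 2 farthest libraries), and within the Mesp1Cre, Mef2cAHF::Cre and Tnnt2::Cre lines r was 0.69, 0.99 and 0.93. With 12 hypoxia response genes r was 0.71 (rho 0.55, and 0.50 without the 2 farthest). Within lines it was -0.11 for Mesp1Cre against 0.97 for Mef2cAHF::Cre and 0.92 for Tnnt2::Cre. The latter lines had 3 libraries a group, and single libraries held the extremes of the hypoxia list. These were -0.47 and 0.60 in Mef2cAHF::Cre controls 1 and 2, and -0.46 and 0.61 in Tnnt2::Cre mutants 1 and 2. In Mesp1Cre no relation of the mean over members to the hypoxia list was thus seen between libraries of a group. Both Ier3 and the hypoxia list were higher in its mutants, but Ier3 alone was not set beside that list in this way. Against 8 erythroid markers r was -0.49 (rho -0.29, and -0.14 without the 2 farthest), with 0.09, -0.52 and -0.84 within the 3 lines in the same order. Against 6 endothelial markers it was 0.48 (rho 0.49, and 0.48 without the 2 farthest), with 0.26, 0.47 and 0.81 within lines. Against 4 macrophage markers r was 0.41 (0.50 without the 2 farthest), against 11 heat shock genes -0.34 (-0.50) and against the library total -0.57 (-0.53, and -0.82 within Tnnt2::Cre). Their part in the shared deviation was not tested.

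**Figure D4:**
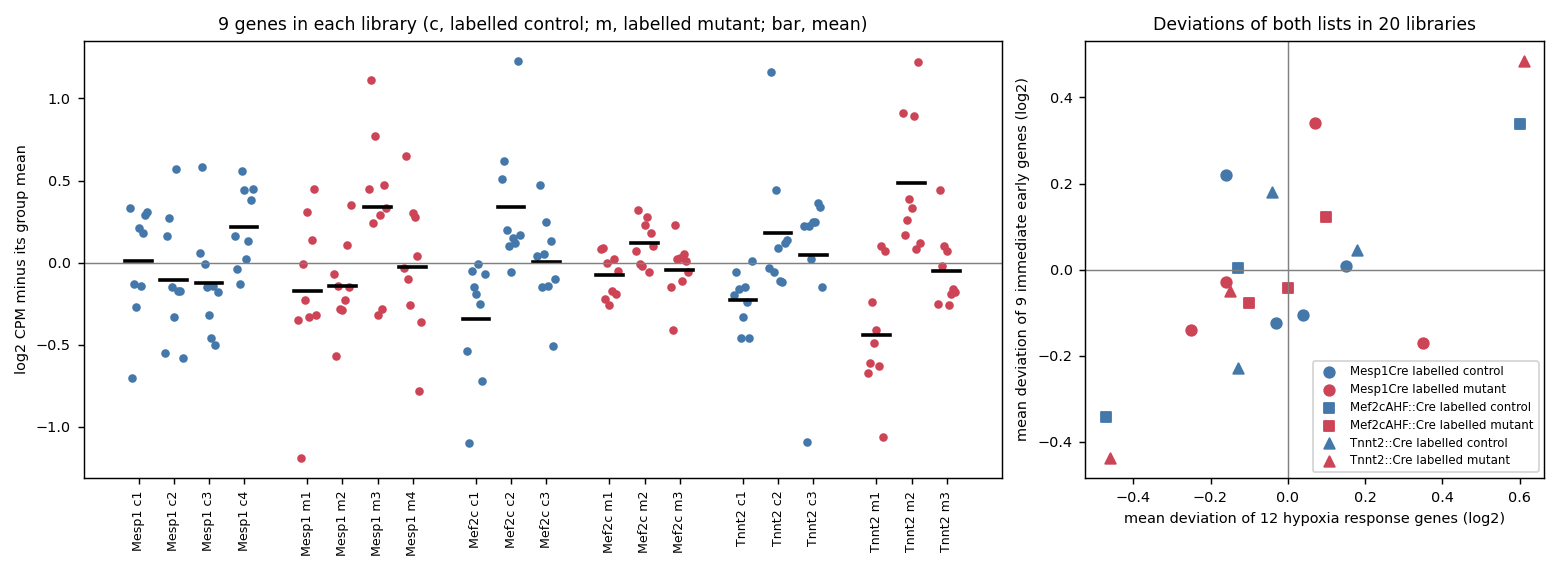
Left, deviation of log2 CPM from the group mean (y axis) of 9 immediate early genes in each library, with a bar for their mean. Right, that mean (y axis) against the mean deviation of 12 hypoxia response genes (x axis, log2), where Tnnt2::Cre mutant 2 (0.49) and mutant 1 (-0.44) lie at opposite ends.

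The 10 genes whose deviations were most like this mean, of 11662 candidates that averaged 1 or more on the log2 CPM scale in each line, were Klf6 (r = 0.86), Bambi (0.85), Trim25 (0.84), Igfbp3 (0.83), Ndufa4l2 (0.83), Rasl11b (0.82), Mbnl2 (0.82), Krt19 (0.81), Dtx3 (0.81) and Errfi1 (0.80), over 20 libraries. Klf6, at the top, encodes a zinc finger factor that is itself an immediate early gene, and Errfi1 a feedback inhibitor of the EGF receptor. Igfbp3 and Ndufa4l2 are known targets of hypoxia-inducible factors. Leaving out the 2 libraries farthest from the median lowered the r of these genes to between 0.67 and 0.79.

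Other immediate early genes changed in both directions in Mesp1Cre. Of 31 tested, 9 were higher and 2 lower in mutants, with a median log2 fold change of 0.31 against -0.002 over all genes, where 6.17% of all genes were higher and 5.29% lower. The smallest p-values belonged to the serum-induced kinase Sgk1 (log2 fold change 0.87, SE 0.15, edgeR FDR 0.00312), the ERK phosphatases Dusp4 (0.66, FDR 0.00313) and Dusp6 (0.77, FDR 0.00639), and the salt-inducible kinase Sik1 (0.54, FDR 0.00805). In Mef2cAHF::Cre, by the titles, 0 of 32 passed as higher and 2 as lower (1.81% and 1.04% of all genes), Dusp4 at -0.72 (edgeR FDR 0.0105) and the growth regulator Myc at -0.58 (FDR 0.0105), both with the opposite sign by the column names. By the titles, Dusp4 thus went in opposite directions in the 2 lines. In Tnnt2::Cre 0 of 33 passed with edgeR (0.293% of all genes), 13 had an unadjusted p below 0.05 (11.9% of all genes), 11 of them higher, and the median was 0.37 against 0.004 over all genes.

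Kinases and factors that act upstream of these genes were counted in the same way. Of 21 such genes 3 were higher and 2 lower in Mesp1Cre mutants (6.17% and 5.29% of all genes), among them the ERK kinase Map2k1 (log2 fold change 0.54, SE 0.08, edgeR FDR 0.00177), the serum response factor partner Elk3 (0.55, FDR 0.00596), the ribosomal S6 kinase Rps6ka2 (0.34, FDR 0.0176) and the CREB relative Atf1 (-0.48, FDR 0.0212). In Mef2cAHF::Cre and in Tnnt2::Cre 0 of 21 passed with edgeR (2.85% and 0.293% of all genes), and 2 in each had an unadjusted p below 0.05 (17.9% and 11.9% of all genes). These genes act mostly through phosphorylation, which mRNA levels do not measure.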

How the data were processed

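The members and gene lists were chosen with earlier results of these data known. Per the paper's methods and the labels, the authors aligned paired reads to mm9 (TopHat2 2.0.8b in the submitters' processing notes) and assigned them to genes with featureCounts; the strand setting is not given in the sources used here. The name of the deposited table, however, says that its counts and FPKM were computed by USeq. Which tool gave the counts used here is therefore not settled. The deposited counts were not normalized, and the FPKM deposited beside them equal those counts scaled to gene length and library total. Of the per-sample columns, 40 (counts, FPKM) were read and 20 with variance-corrected values were left out. The labels and the paper name different library kits and instruments. Groups follow titles and genotype labels. Each line was fitted alone in edgeR 4.0.16 (R 4.3.3) with filterByExpr, TMM and the quasi-likelihood F test, adjusted by Benjamini-Hochberg over all genes tested, with a threshold of 0.05. The difference between lines was an interaction in 1 fit of 6 groups. The scripts were tested on simulated counts. Log2 CPM used a prior count of 2. Alternatives were DESeq2 1.42.0, limma 3.58.1 on log2(FPKM + 0.1) and log2(FPKM + 1), other filters and scalings, and each library left out. All 10 members were named, with at most 4 genes of each other list and line by smallest p. The libraries held 21727258 to 45341870 counts.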

Additional observations from a re-analysis of the deposited data

Results flagged for a closer look

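Among 20 groups of 4 libraries tested, 1 for each member in Mesp1Cre mutants and in controls, Atf3 was set apart by a single library in both. Mesp1Cre control 4 had 7.82 CPM against 4.37 to 4.76 in the other 3, and Mesp1Cre mutant 3 had 10.2 CPM against 4.86 to 5.04 in the other 3. At the cut-off used, chance alone flags a library in about 1 in 20 groups. In Mesp1Cre mutant 3, 7 of 9 members lay above the group mean, and in control 4 also 7 of 9.

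The effect of the mutant differed between lines for Ier3, by 3.84 on the log2 scale between Mesp1Cre and Mef2cAHF::Cre, and for Fos, by 2.28 between Tnnt2::Cre and Mef2cAHF::Cre, both by the sample titles and by the interaction test. By the column names of the table the differences were 2.18 and 0.27 and did not pass an FDR of 0.05. In the fits of single lines, Ier3 in Mef2cAHF::Cre went from -0.83 to 0.07 without control 2. Fos in Tnnt2::Cre went from 1.28 to 0.67 without mutant 2. The interaction was not refitted without these libraries.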

How the results depend on the processing

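In Mesp1Cre 1 member passed under all 9 other settings and without each library. In Mef2cAHF::Cre the count was 1 with DESeq2 and with all genes of at least 1 count, and 0 to 1 when a library was left out. In Tnnt2::Cre it was 1 with DESeq2 and 0 to 4 when a library was left out. Of 460 alternative values of single members 422 kept direction and side of the threshold, 8 passed it newly and 30 turned. By the column names, Mef2cAHF::Cre gave 1.01 for Fos, 0.23 for Fosb, 0.05 for Jun, 0.36 for Atf3, 0.18 for Egr1, 0.09 for Klf4, 0.40 for Ier2, 0.83 for Ier3 and -0.23 for Dusp1. On log2(FPKM + 0.1) and log2(FPKM + 1), Egr1 in Mesp1Cre was 0.15 and 0.13, and in Tnnt2::Cre Fosb was 0.15 and 0.02 and Jun 0.09 and 0.08, on a scale where the median of all genes stood at 0.148, -0.131 and 0.111 (pseudocount 0.1) in Mesp1Cre, Mef2cAHF::Cre and Tnnt2::Cre. With a library left out, values turned in Mesp1Cre for Egr1 (-0.12 to 0.15) and Atf3 (-0.12 to 0.43), in Mef2cAHF::Cre for Fosb (-0.64 to 0.09), Jun (-0.17 to 0.06) and Ier3 (-1.16 to 0.07), and in Tnnt2::Cre for Fosb (-0.43 to 0.80), Jun (-0.16 to 0.09) and Klf4 (-0.25 to 0.62). The cause was not tested.

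Same-numbered mutants and controls share a number only: their deviations correlated at -0.05 to 0.17, and 2 of the 10 mutants correlated best with the control of their own number. In Mesp1Cre they also share a code of unstated meaning. With the replicate block the counts were 1, 0 and 0 members, and Fosb in Tnnt2::Cre was 0.11. Genes called over the whole table moved from 1821 to 1384 in Mesp1Cre, 482 to 517 in Mef2cAHF::Cre and 50 to 28 in Tnnt2::Cre with the block, and to 2726, 1083 and 360 with DESeq2. They were 3593, 129 and 82 in the fit of 6 groups, and 1052 to 2161, 75 to 662 and 4 to 896 with a library left out. On log2(FPKM + 0.1) they were 1924, 291 and 22 and on log2(FPKM + 1) 1925, 253 and 19. With all genes of at least 1 count they were 1712, 1311 and 120. The median SD over members was 0.40 under both alternatives. Fosb and Junb rested on medians of 20 and 19.5 reads a library, for which counting alone gives an SD of 0.36 and 0.39, beside pooled SDs of 0.82 and 0.55.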

Other observations

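Heat shock genes, some of which are also induced by stress and handling, had lower estimates in Mesp1Cre mutants. Whether handling had a part in this was not tested. Of 11 heat shock genes in the fit, 5 passed an FDR of 0.05 as lower and 0 as higher (5.29% and 6.17% of all genes), and all 11 estimates were below 0. The chaperonin genes Hspd1 (log2 fold change -0.44, SE 0.09, edgeR FDR 0.0084) and Hspe1 (-0.39, FDR 0.0226) and the cytosolic chaperone genes Hsph1 (-0.77, FDR 0.0152) and Hspa8 (-0.52, FDR 0.0153) had the smallest p-values among them. The list summed to 4419 to 5355 CPM in mutants and 5626 to 6048 in controls, without overlap. In Mef2cAHF::Cre and Tnnt2::Cre 0 of 11 passed with edgeR (2.85% and 0.293% of all genes), and 3 in each had an unadjusted p below 0.05 (17.9% and 11.9% of all genes). Of the 3 in Mef2cAHF::Cre 1 was higher by the titles, and 4 of 11 estimates lay above 0. All 3 in Tnnt2::Cre were higher in mutants, and 9 of 11 estimates lay above 0.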
